A study of Homo sapiens with 45 samples.

Results

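The comparison covered the 19 fixed cells of a series of 45 single cells. All were H1, an established line of human embryonic stem cells, grown to passage 40. The 19 were chosen by their labelled sample group: 12 fixed cells were prepared by FRISCR and 7 by lysis in the detergent Triton X-100. All 19 were DAPI-positive, and the 26 live cells, which were DAPI-negative (15 FRISCR, 11 Triton), served as a reference for which genes H1 cells express without fixation. Complementary DNA of each cell was made by Smart-seq2 and sequenced from Nextera XT libraries. The sample titles code the preparations as PLRC and RLT, and the extraction protocol given with them is one for cortical tissue, not for H1 cultures. A code in the titles splits the fixed FRISCR cells into library sets of 6 and 6 and the fixed Triton cells into sets of 4 and 3. No separate cultures are named in the labels. Each group was therefore counted as 1 sample, cells were not treated as replicates, and no test of a difference was possible. Intervals of ratios are 95% intervals of counting error alone, because the reads carry no molecular identifiers and several can come from 1 molecule.

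FRISCR (fixed and recovered intact single-cell RNA) is a procedure for cells that were crosslinked with aldehyde so that they could be stained inside and sorted. Crosslinks join RNA to protein. The cell is digested and heated to free the RNA, and polyadenylated RNA is captured on oligo(dT) beads before it is copied. Plain detergent lysis opens the membranes and carries the whole lysate into reverse transcription. No step before that copying reverses crosslinks or captures polyadenylated RNA on beads. Most messenger RNAs end in a poly(A) tail. Ribosomal RNA does not, and replication-dependent histone messenger RNAs, which serve DNA synthesis, end in a conserved stem-loop in its place.

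Total counts per cell ranged from 3616119 to 5670876 with FRISCR and from 3388444 to 4763292 with Triton lysis. Levels are counts per 1000000 (CPM), for a group from its summed counts, and 3 counts were put in place of a group sum of 0 as a floor (0.0548 CPM for FRISCR, 0.103 CPM for Triton). The cells were checked against embryonic stem cell markers. POU5F1 (OCT4), a core factor of the pluripotent state, ran from 537 to 1596 CPM (median 1177) in FRISCR cells and from 40.8 to 807 CPM (median 276) in Triton cells, with a count in all 19. The RNA-binding protein LIN28A, the co-receptor TDGF1 and the RNA-binding protein L1TD1 had a count in all 19 cells too, and the DNA methyltransferase DNMT3B and the transcription factor SOX2 in 12 of 12 FRISCR and 6 of 7 Triton cells. NANOG had a count in all 19, but its median was 110.6 CPM with FRISCR and 2.07 CPM with Triton.

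A gene was called recovered by a method when its summed level reached 10 CPM in both library sets and at least 60% of the cells of both sets held a count. Of 23045 genes in the tables, FRISCR recovered 6416 (27.8%) and Triton lysis 2090 (9.07%). Both methods recovered 1936 genes (8.4% of the tables), which were 30.2% of those of FRISCR and 92.6% of those of Triton. A gene was called recovered by one method only when, in addition, no cell of the other method held a count. By this rule 236 genes came from FRISCR only (1.02% of all genes in the tables) and 4 from Triton only (0.0174%). The 4 were all histone genes. These counts are not on equal terms. FRISCR only asks for no count in 7 fixed Triton cells, and Triton only for none in 12 fixed FRISCR cells, which is harder to meet. Against the FRISCR cells of set 1 alone the Triton only genes numbered 8, and against those of set 2 alone 6. A further 4244 genes met the FRISCR rule and had a count in some Triton cell, so that 4480 genes (19.4%) were recovered by FRISCR and not by Triton lysis, against 154 (0.668%) the other way. In the live cells the same rule called 0 genes FRISCR only and 1 gene Triton only, the linker histone HIST1H1D (0.00434%). The live groups hold more cells (15 FRISCR, 11 Triton) than the fixed ones, so absence from every cell is harder to meet there. Both methods recovered 6245 genes in live cells (89.9% of those of FRISCR and 87.0% of those of Triton).

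**Figure D1:**
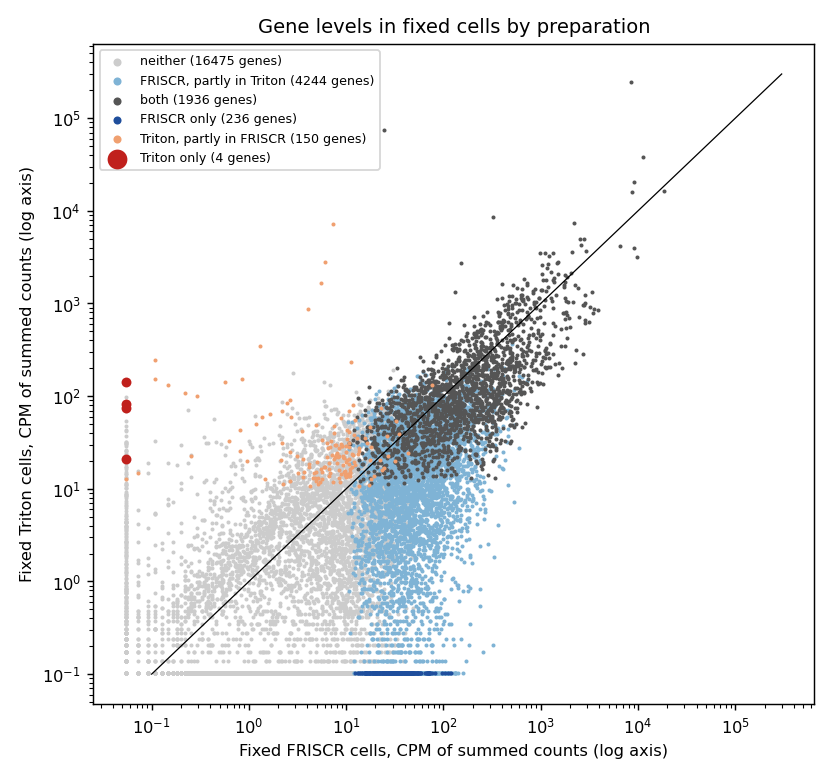
Level of each gene in fixed FRISCR cells (x axis) and fixed Triton cells (y axis), as CPM of summed counts on log axes, with a point per gene coloured by recovery and a line of equal level. Sums of 0 sit at the floor of 3 counts. The 236 FRISCR only genes lie along the bottom edge and the 4 Triton only genes along the left edge.

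The FRISCR only genes depended on which Triton cells were present. Without fixed Triton replicate 3 they numbered 388, and without replicate 4 they numbered 385. Both of these sets of genes included all 236 by construction, which is no check on the 236. The rule asks for no count in any Triton cell, so leaving out a Triton cell can only add genes. Leaving out any 1 of the other cells gave between 255 and 310. Leaving out a FRISCR cell lowers the number of cells with a count that its set needs, so genes can be added that way too. The lists without 1 FRISCR cell kept 223 to 233 of the 236 genes. These counts reflect a changed threshold and are no check on the 236 either. With 6 FRISCR cells of 1 set against the 7 Triton cells, and no requirement in the other set, there were 463 (set 1) or 427 (set 2). If cells are taken as independent draws, which the design does not establish, the exact binomial interval for 0 of 7 cells reaches 41.0% of cells, so absence from these cells was not absence from all cells of the preparation.

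Genes recovered by FRISCR and not by Triton lysis were mostly seen in some Triton cells. Of the 6416 FRISCR genes, 236 had a count in 0 Triton cells, 595 in 1 cell, 804 in 2, 791 in 3, 751 in 4, 731 in 5, 691 in 6 and 1817 in all 7. Just outside the limit, the 595 genes with a count in 1 Triton cell had a median of 26 counts there, and 161 of them had a single count. A single Triton cell held a count for 3388 to 4819 of the 6416 genes (52.8% to 75.1%, median 60.7%), the most in replicates 3 and 4 of set 1. A live Triton cell held 90.1% to 98.2% of them. In the other direction, a FRISCR cell held a count for 2033 to 2069 of the 2090 Triton genes (97.3% to 99.0%).

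**Figure D2:**
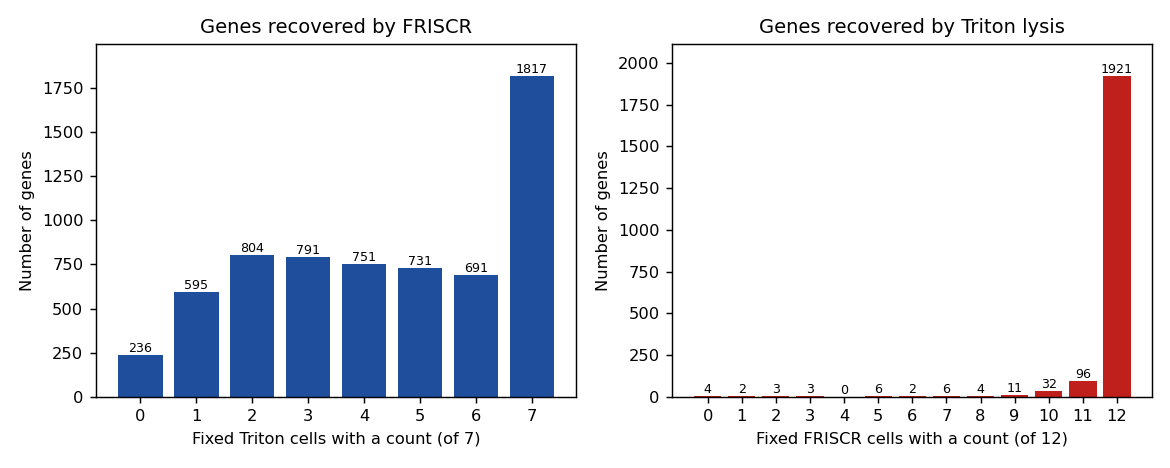
Number of genes (y axis) by the number of cells of the other method that held a count (x axis), for the 6416 genes recovered by FRISCR (left, out of 7 fixed Triton cells) and the 2090 recovered by Triton lysis (right, out of 12 fixed FRISCR cells). FRISCR genes were spread over 0 to 7 Triton cells, with 1817 in all 7, while 1921 Triton genes were in all 12 FRISCR cells.

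The 236 FRISCR only genes were nearly all protein-coding and present in live cells of both preparations, as were other genes that FRISCR recovered. Their FRISCR levels ran from 12.2 to 120.2 CPM (median 32.5). In GENCODE release 29, 233 (98.7%) were protein-coding. That share was 97.6% for FRISCR genes with a count in some Triton cell and 96.1% for genes recovered by both. All 236 had at least 1 CPM in both live groups, with medians of 30.0 CPM in live FRISCR and 28.4 CPM in live Triton cells. All 1936 genes recovered by both reached 1 CPM in both live groups too. In the live cells 171 of the 236 were recovered by FRISCR, 170 by Triton lysis, 135 by both and 30 by neither. With the floor in place of 0, they were at least 118-fold to at least 1168-fold higher with FRISCR. On the CPM scale, which is not corrected for length, their median live level of 29.5 CPM was below that of genes that FRISCR recovered and Triton lysis recovered in part (50.8 CPM) and of genes recovered by both (141 CPM).

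The 15 FRISCR only genes ranked highest by FRISCR CPM came from several compartments. TFRC on chromosome 3, the transferrin receptor that brings iron into the cell, had a count in 10 of 12 FRISCR cells, with a lowest value of 0, a median of 88.5 and a highest of 330.0 CPM. It had 0 counts in 7 Triton cells, at least 1168-fold lower, although live Triton cells held it at 214 CPM and live FRISCR cells at 238 CPM. HPRT1 on chromosome X, the purine salvage enzyme often used as a reference gene, ran from 0 to 243 CPM (median 109.5) in FRISCR cells, with a count in 11 of 12. Live Triton cells held HPRT1 at 82.2 CPM. Both genes overlapped between the preparations only through FRISCR cells at 0.

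Mitochondrial genes stood among them. PMPCA on chromosome 9, a subunit of the protease that removes mitochondrial import signals, had a count in all 12 FRISCR cells, from 30.2 to 180 CPM (median 112), and 0 in all Triton cells. COX11 on chromosome 17, a copper chaperone for cytochrome c oxidase, ran from 26.3 to 211 CPM (median 96.9) in the 12 FRISCR cells. PDHX on chromosome 11, a structural part of the pyruvate dehydrogenase complex, ran from 0.181 to 140.5 CPM (median 75.3). For these 3 genes every FRISCR cell lay above every Triton cell. SUPV3L1, a helicase of mitochondrial RNA decay, had 76.7 CPM over the FRISCR cells and a count in 11 of them. In live Triton cells PMPCA had 127 CPM, COX11 60.8 CPM, PDHX 67.1 CPM and SUPV3L1 61.8 CPM.

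Others of the 15 include nuclear and membrane proteins. VPS72 (81.8 CPM over FRISCR cells), a subunit of chromatin remodelling complexes that handle the histone variant H2A.Z, FTSJ1 (73.0 CPM), a methyltransferase of transfer RNA, and TSPAN13 (68.9 CPM), a tetraspanin of the membrane, had counts in all 12 FRISCR cells. The ceramide synthase LASS5 (96.2 CPM), the Integrator subunit INTS8 (70.7 CPM) and the origin recognition subunit ORC5 (70.5 CPM) had counts in 11. HSPA13, an HSP70 family member (70.7 CPM), and SCPEP1, a serine carboxypeptidase family member (68.7 CPM), had counts in 10. These genes were present in live Triton cells, ORC5 at 36.5 CPM and LASS5 at 106 CPM.

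In all, 29 of the 236 genes had a count in all 12 FRISCR cells and in 0 of 7 Triton cells. Beyond those above, and named after their values were seen, they include the RNA kinase CLP1 (from 0.217 to 118 CPM over the 12 cells, median 60.7), the mitochondrial elongation factor TSFM (0.277 to 88.2, median 62.7) and the methionine synthase reductase MTRR (3.04 to 133, median 59.4). The large-subunit mitochondrial ribosomal protein MRPL46 ran from 16.6 to 101.5 CPM (median 38.3), and the mitochondrial import protein TIMM9 from 6.80 to 102 CPM (median 40.4). LDOC1 ran from 13.8 to 80.1 CPM (median 31.2). All 29 were above every Triton cell by construction.

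Of the 236, 6 belonged to the gene lists described below. The share of all genes that those lists hold was not computed, so this count is not a result about the 236. The 6 were TFRC, the mitochondrial ribosomal proteins MRPL46 and MRPL24, the replication factor GINS3, the heme oxygenase HMOX1, which opens the heme ring and releases iron, and the keratin KRT7. GINS3 and KRT7 had counts in 8 of 12 FRISCR cells, HMOX1 in 9 and MRPL24 in 10. GINS3, HMOX1 and MRPL24, named after their values were seen, had live Triton levels of 26.3, 24.8 and 24.5 CPM. KRT7 had 16.6 CPM there.

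The 4 genes recovered by Triton lysis only encode 3 linker histones and 1 core histone, all on chromosome 6. The linker histone HIST1H1E had a count in 5 of 7 Triton cells, from 0 to 290 CPM with a median of 156.5, and 0 counts in 12 FRISCR cells, at least 2601-fold lower with FRISCR. HIST1H1D had a count in 6 of 7 Triton cells, from 0 to 264 CPM with a median of 3.57. HIST1H1B had a count in 6 of 7, from 0 to 180 CPM with a median of 62.8, and the core histone HIST1H2AD in 6 of 7, from 0 to 82.3 CPM with a median of 15.3. The last 3 were at least 1490-fold, 1354-fold and 382-fold lower with FRISCR. Each had at least 1 Triton cell at 0, so the cells of the preparations overlapped. The set of 4 went to 1 gene without fixed Triton replicate 6 and to 2 genes without replicate 7. Both are cells of set 2, and without either the rule asks for a count in every remaining cell of that set. It went to 0 genes when 80% of cells were required. In sets of 4 and 3 cells that means every Triton cell, so no gene with a Triton cell at 0 could remain. In live cells HIST1H1E had 30.3 CPM with Triton and 0.372 CPM with FRISCR, and HIST1H1B had 23.4 and 0.964 CPM. HIST1H1D had 34.4 CPM and 0 counts, and HIST1H2AD 2.49 and 0.0138 CPM. Histone genes have near-identical copies, and how the authors' counting split reads between them is not given in the sources used here, so values of single copies are uncertain.

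The stem-loop that ends replication-dependent histone messenger RNAs is shown for 4 of them, since it is the feature these transcripts share in place of a poly(A) tail. The histone stem-loop consensus was searched on the transcript strand of GENCODE release 29 transcripts, and the matching bases are in capitals with up to 5 flanking bases on each side. The annotated transcript of HIST1H1E ends inside the second arm of the stem.
HIST1H1E: ccaaaGGCTCTTTTCAGA
HIST1H2AI: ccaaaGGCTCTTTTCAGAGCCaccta
HIST1H4E: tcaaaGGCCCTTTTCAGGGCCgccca
HIST1H4J: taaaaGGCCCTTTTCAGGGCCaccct
The whole consensus occurred in transcripts of 44 of 58721 GENCODE genes (0.0749%), and in 31 of the 64 genes of the replication-dependent histone list. It occurred in 0 of the 236 FRISCR only genes, in 0 of the 4 Triton only genes and in 2 of the 1936 genes recovered by both. The annotated transcripts of HIST1H1D, HIST1H1B and HIST1H2AD held no match, which says only that these letters are not in those transcripts as annotated.

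HIST1H2AD is not on the replication-dependent histone list and is left out of the list's counts. Across the 64 list members, 40 had a higher summed CPM with Triton, 12 with FRISCR, and 12 had 0 counts in both. Triton lysis brought 19 of them to 10 CPM or more and FRISCR brought 1. HIST1H4C, a core histone H4 gene, ran from 137 to 2967 CPM (median 2009) in Triton cells and from 0 to 19.9 CPM (median 0.848) in FRISCR cells, 301-fold lower with FRISCR (interval 268 to 338). All 7 Triton cells lay above all 12 FRISCR cells for HIST1H4C. HIST1H4J had the smallest difference of the 6 list members with a live level of at least 10 CPM. It ran from 38.1 to 283 CPM (median 117) with Triton and from 10.8 to 49.8 CPM (median 27.99) with FRISCR, and the cells overlapped. Those 6 had a median log2 fold, FRISCR over Triton, of -10.47, and -6.44 in live cells. Because 4 of the 6 had a FRISCR sum of 0, the fixed median is set by the floor and is a bound. Over all list members with a count in either fixed group the median was -4.15. Histone variants with polyadenylated messenger RNA lay on the other side, with a median of 1.17 over 9 measured members, which went to -0.026 by median of ratios. The most abundant of these, H2AFZ, ran from 1983 to 2877 CPM with FRISCR and from 650 to 1970 CPM with Triton.

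Beyond the 4, 8 genes recovered by Triton lysis had a count in 3 or fewer FRISCR cells, and these were named after their values were seen. HIST1H2AH and the sphingolipid transporter SPNS2 had a count in 1 FRISCR cell. The ribosomal RNA row c17_LSU-rRNA_Hsa, the small Cajal body RNA SCARNA22 and the actin filament associated protein AFAP1L1 had a count in 2, and HIST1H2AM, HIST1H2AJ and HIST1H2AI in 3. SPNS2 ran from 0 to 107 CPM (median 54.2) in Triton cells and reached 13.5 CPM in the 1 FRISCR cell, while the live groups held 0.0519 CPM with Triton and 0.0275 CPM with FRISCR. AFAP1L1 ran from 8.26 to 14.8 CPM (median 13.4) in Triton cells and reached 0.258 CPM in FRISCR cells. Its live level was 4.17 CPM with FRISCR and 0.381 CPM with Triton. SPNS2 and AFAP1L1 thus had little or no live Triton signal, unlike the linker histones. The intermediate filament protein SYNC, likewise named after its values were seen, ran from 2.36 to 369 CPM (median 125) in fixed Triton cells and stood at 0.840 CPM with FRISCR, with live levels of 0.623 and 0.647 CPM.

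Rows named for ribosomal RNA made up most of the largest differences toward Triton among rows at 50 CPM or more with Triton in both sets. A row for ribosomal RNA of the small subunit, c21_SSU-rRNA_Hsa, ran from 51899 to 89319 CPM (median 77461) in Triton cells and from 0.903 to 113 CPM (median 21.0) in FRISCR cells, 2993-fold lower with FRISCR (interval 2837 to 3159). Of the 10 such rows with the largest difference by the smaller fold of the sets, 8 were named for ribosomal RNA and 2 were HIST1H1E and HIST1H1D. The 44 rows named for ribosomal RNA made up 6.09% to 11.4% of the counts of fixed Triton cells (median 9.00%) and 0.000939% to 0.0187% of those of fixed FRISCR cells (median 0.00519%). TVAS5, a row matched to no gene of the annotation, took 16.2% to 33.0% (median 26.3%) of counts with Triton and 0.591% to 1.77% (median 0.773%) with FRISCR. These 44 rows and 5 abundant unmatched rows, TVAS5 among them, took medians of 42.5% of Triton and 5.54% of FRISCR counts. CPM of every other gene is a share of the same total, so these shares move with each level below, and their part in the results was tested only through other totals.

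**Figure D3:**
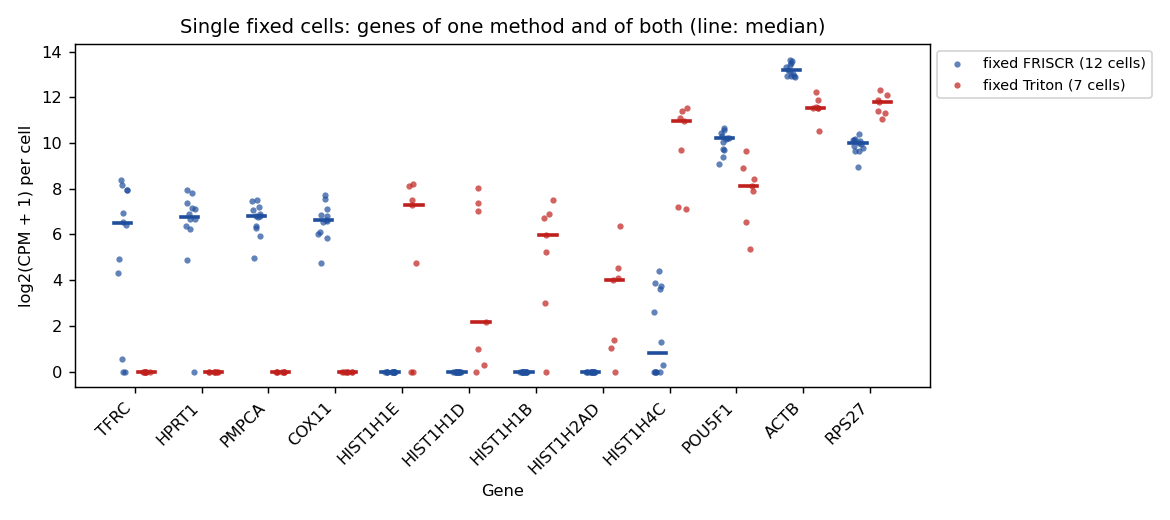
Level of 12 genes in single fixed cells as log2(CPM + 1) (y axis), a point per cell (FRISCR blue, Triton red) and a line at the median. TFRC, HPRT1, PMPCA and COX11 sit at 0 in all 7 Triton cells, and the 4 Triton only histone genes at 0 in all 12 FRISCR cells. ACTB and POU5F1 had counts in every cell of both preparations and higher medians with FRISCR, and RPS27 a higher median with Triton.

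Folds were described for the 8780 genes whose mean over both live groups reached 10 CPM, a choice that does not use the fixed cells. Their median log2 fold, FRISCR over Triton in fixed cells, was 1.86, with 2.41 in library set 1, 2.92 in set 2 and 0.10 in live cells. At least 2-fold higher with FRISCR in both sets were 4440 genes (50.6%), and at least 2-fold higher with Triton were 174 (1.98%). Other totals moved this split, because they move all genes together: TMM lowered the median by 1.09 on the log2 scale and gave 3150 against 685 genes, and median of ratios lowered it by 1.20 and gave 3045 against 775. Without the abundant rows the counts were 3557 against 461. Of the 8780 genes, 868 (9.89%) had no count in any Triton cell and 6 (0.0683%) none in any FRISCR cell. Absence from all 12 FRISCR cells is harder to meet than absence from all 7 Triton cells. Every FRISCR cell lay above every Triton cell for 363 genes (4.13%), and every Triton cell above every FRISCR cell for 30 (0.342%).

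Those 30 genes describe what detergent lysis kept at a higher share in each of its cells. They held 8 rows named for ribosomal RNA, HIST1H4C, TVAS5, MALAT1, 11 cytosolic ribosomal protein genes and MTRNR2L1, MTRNR2L2 and MTRNR2L8, nuclear genes similar to mitochondrial ribosomal RNA whose reads may be shared with it. MALAT1, a nuclear long noncoding RNA whose mature end is a triple helix and not a poly(A) tail, ran from 358 to 2855 CPM (median 1541) with Triton and from 49.1 to 304 CPM (median 112) with FRISCR, 10.1-fold lower with FRISCR. In live cells MALAT1 was 7.98-fold lower with FRISCR, at 149 CPM against 1192 CPM. FTL, the ferritin light chain that stores iron, ran from 3773 to 10621 CPM with Triton and from 1503 to 3130 CPM with FRISCR. In live cells FTL stood at 2110 CPM with Triton and 1864 CPM with FRISCR. The chaperone CALR, the actin-binding peptide TMSB10 and the oligosaccharyltransferase subunit OST4, named after its values were seen, belonged to the 30 too.

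The largest differences toward FRISCR, among genes at 50 CPM or more with FRISCR in both sets, were genes with a handful of Triton counts. The 10 genes chosen by the smaller fold of the sets had 2 to 6 counts over the 7 Triton cells, against 78.2 to 322 CPM with FRISCR and 62.2 to 262 CPM in live Triton cells. PSMC6, an ATPase subunit of the proteasome, ran from 157 to 479 CPM (median 294) in FRISCR cells and from 0 to 0.751 CPM (median 0.210) in Triton cells, 1566-fold higher with FRISCR (interval 719 to 4267). SDCBP, the scaffold protein syntenin, ran from 113 to 488 CPM (median 226) and from 0 to 1.00 CPM, 1490-fold higher (638 to 4590). RFC4, a subunit of the loader of the replication clamp, had 172 CPM against 0.137 CPM. For PSMC6, SDCBP and RFC4 all FRISCR cells lay above all Triton cells. Others were SERPINE2, an inhibitor of serine proteases, GMPR2, an enzyme of purine interconversion, TOR1A, an ATPase of the endoplasmic reticulum lumen, MUDENG, PDCD6IP (ALIX, which acts in endosomal sorting) and AATF. For AATF, with 2 counts in Triton cells, the ratio was 1535 (interval 425 to 12681). Leaving out 1 cell at a time gave log2 folds between 9.90 and 12.65 for the 10 genes, against 10.15 to 10.61 with all cells. The genes were chosen from these same cells for their large folds, so this range is not a check on them.

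Genes recovered by both methods were led by abundant rows that matched no gene of the annotation. The 5 with the highest lower level of both groups were BC018860, OK/SW-cl.16, STRF6, cytochromeb and TVAS5. BC018860 stood at 18339 CPM with FRISCR and 16346 CPM with Triton, the closest pair of the 5, and its cells overlapped. Among named genes, GAPDH, a glycolytic enzyme, ran from 3469 to 8527 CPM (median 6733) with FRISCR and from 2718 to 5573 CPM (median 4417) with Triton. ACTB, cytoplasmic actin, ran from 7657 to 12828 CPM with FRISCR and from 1457 to 4767 CPM with Triton, with no overlap. Among core pluripotency factors, POU5F1 was 3.53-fold higher with FRISCR (log2 0.94 in set 1 and 3.27 in set 2). SOX2, also recovered by both, was 1.21-fold higher, with sets on opposite sides (-0.55 and 1.95). Its log2 fold of 0.28 went to -0.81 with TMM and -0.92 with median of ratios, scalings described with all genes above, and to -0.43 without the abundant rows. Leaving out fixed Triton replicate 2 moved SOX2 to 2.45, and leaving out replicate 6 moved it to 0.032. NANOG met the recovery rule with FRISCR but not with Triton lysis. It was 4.63-fold higher with FRISCR, with sets at 5.98 and 1.16, and leaving out 1 cell moved its log2 fold between 1.97 and 3.36, the latter without fixed Triton replicate 7.

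**Figure D4:**
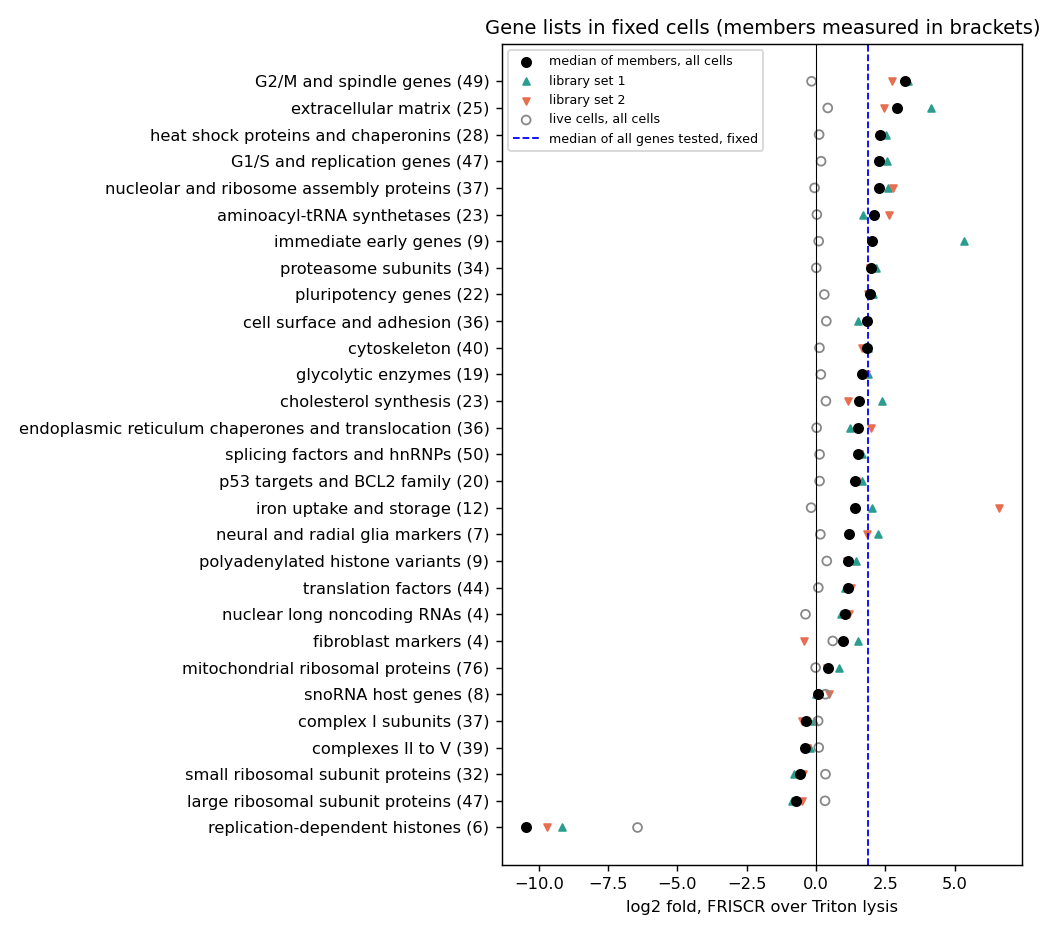
Median log2 fold, FRISCR over Triton lysis, of each gene list with 3 or more measured members (x axis), for all fixed cells (black), library set 1 (green), library set 2 (orange) and live cells (open circles). The dashed line marks the median of all 8780 genes, 1.86. Replication-dependent histones lie at -10.47, ribosomal protein and respiratory complex genes left of 0, and G2/M genes at 3.20.

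Lists of genes by function spread around this median. Genes for the proteins of the cytosolic ribosome lay lowest after the replication-dependent histones, with medians of -0.71 over 47 large-subunit and -0.57 over 32 small-subunit genes, and all 79 were recovered by both methods. At least 2-fold higher with Triton in both sets were 7 and 6 of them (14.9% and 18.8%, against 1.98% of all genes tested), and 1 and 0 with FRISCR (against 50.6%). RPS27 ran from 2121 to 5061 CPM (median 3544) with Triton and from 495 to 1351 CPM (median 1010) with FRISCR, without overlap. RPL4 lay on the other side, from 1429 to 2136 CPM with FRISCR and from 182 to 1211 CPM with Triton, a log2 fold of 1.12 that went to -0.076 by median of ratios. In live cells the subunit medians were 0.33 and 0.34.

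Genes of the respiratory chain also lay below all genes. Complex I subunits had a median of -0.36 over 37 genes and complexes II to V -0.39 over 39, both above 0 by mean TPM (0.12 and 0.14) and below the median of all genes there too. Members parted within the lists. The complex III subunit UQCR10 stood at 163 CPM with FRISCR and at 588 CPM with Triton, whereas the ATP synthase beta subunit ATP5B ran from 1451 to 3097 CPM with FRISCR and from 0.232 to 556 CPM with Triton, without overlap. SDHC, a membrane anchor of complex II, ran from 166 to 369 CPM with FRISCR and from 0 to 3.49 CPM with Triton. Mitochondrial ribosomal proteins had a median of 0.44 over 76 genes, which lay below 0 with TMM, with median of ratios and with totals that left out the abundant rows. Of these 76, 18 (23.7%) were at least 2-fold higher with FRISCR in both sets and 0 with Triton, against 50.6% and 1.98% of all genes tested. FRISCR only were 2 of the 76, beside 220 of the 8780 genes tested, a similar share.

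Mitotic genes lay highest among the lists with more than 3 members. G2/M and spindle genes had a median of 3.20 over 49 genes (3.33 and 2.75 in the sets, -0.16 in live cells), above all genes in set 1 and below the 2.92 of all genes in set 2. At least 2-fold higher with FRISCR in both sets were 35 of them (71.4%), and 0 with Triton, against 50.6% and 1.98% of all genes tested. TOP2A, the topoisomerase that untangles chromosomes, ran from 144 to 1279 CPM (median 416) with FRISCR and from 12.2 to 118 CPM (median 61.4) with Triton, without overlap. KIF23, a motor protein of cell division, ran from 0.670 to 337 CPM (median 103) with FRISCR and had 1 count over the Triton cells, a ratio of 3785 (679 to 149526). NDC80, a kinetochore protein, was the lowest member, with 75.8 and 77.6 CPM, and 1 Triton cell at 507 CPM. G1/S and replication genes had a median of 2.29 over 47, with 31 (66.0%) at least 2-fold higher with FRISCR and 0 with Triton, beside the same 50.6% and 1.98%. MCM3, part of the helicase that opens DNA for replication, stood at 314 CPM with FRISCR and at 40.5 CPM with Triton.

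Lists of protein production and turnover had medians between 1.16 and 2.31, around the 1.86 of all genes. Translation factors had a median of 1.16 over 44 genes (-0.04 by median of ratios), aminoacyl-tRNA synthetases 2.10 over 23, proteasome subunits 1.98 over 34, and nucleolar and ribosome assembly proteins 2.26 over 37. Heat shock proteins and chaperonins had 2.31 over 28, and chaperones and translocation factors of the endoplasmic reticulum 1.53 over 36. Splicing factors and hnRNPs had 1.53 over 50. HSP90AB1, a cytosolic chaperone, ran from 2828 to 3728 CPM with FRISCR and from 453 to 1642 CPM with Triton. PDIA3, a disulfide isomerase of the endoplasmic reticulum, stood at 1637 CPM with FRISCR and at 200.6 CPM with Triton, while CALR of the same list stood at 467 and 1200 CPM. HNRNPL, a splicing regulator, had 114 and 609 CPM, and HNRNPH2 of the same list had 135 CPM against 3 counts.

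Glycolytic enzymes had a median of 1.65 over 19 genes and cholesterol synthesis 1.54 over 23 (2.37 and 1.17 in the sets). Each had 12 members at least 2-fold higher with FRISCR in both sets (63.2% and 52.2%) and 0 with Triton, against 50.6% and 1.98% of all genes tested, so the cholesterol share was near that of all genes. EBP, a sterol isomerase, was the lowest member of its list, with 298 CPM with FRISCR and 593 CPM with Triton. Cytoskeleton genes had 1.83 over 40, cell surface and adhesion genes 1.85 over 36, and extracellular matrix genes 2.91 over 25 (4.14 and 2.45 in the sets). MFGE8, a secreted glycoprotein, ran from 534 to 1301 CPM with FRISCR and from 0.873 to 547 CPM with Triton. Pluripotency genes had 1.96 over 22 measured members of 29, with 14 (63.6%) at least 2-fold higher with FRISCR in both sets and 0 with Triton, against 50.6% and 1.98% of all genes tested. The surface glycoprotein CD24 stood at 2831 CPM with FRISCR and at 1244 CPM with Triton. Smaller lists moved more between the sets. Iron uptake and storage genes had 1.42 over 12, with 2.00 in set 1 and 6.598 in set 2, and TFRC and FTL lay at its ends. Immediate early genes had 2.03 over 9, with 5.33 in set 1 and 2.00 in set 2, and p53 targets with the BCL2 family 1.43 over 20. Host genes of small nucleolar RNA had 0.06 over 8, with sets on opposite sides of 0 (-0.0039 and 0.48), and nuclear long noncoding RNAs 1.06 over 4, from MALAT1 at -3.33 to MIAT at 3.31. That last median went to -0.031 with TMM and -0.14 with median of ratios.

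Most markers of other cell types fell below the live level required, and among these lists the fibroblast and neural ones had the highest summed levels. Fibroblast markers had a median of 0.99 over 4 measured of 13, which went below 0 in set 2 (-0.42), with TMM (-0.098) and with median of ratios (-0.21). Neural and radial glia markers had 1.21 over 7 of 18 (2.23 and 1.82 in the sets). Of the trophoblast markers 2 of 12 were measured, KRT7 and TEAD4. No mesoderm, endoderm or blood marker reached the live level required. The summed level of the fibroblast list ran from 202 to 840 CPM in FRISCR cells and from 35.3 to 573 CPM in Triton cells, carried mostly by THY1, which H1 cells express (484 and 209 CPM). The neural list ran from 413 to 1576 and from 49.8 to 563 CPM. Mesoderm and endoderm markers summed to at most 69.6 and 125 CPM, trophoblast markers to at most 151 and 48.8 CPM, and blood markers to at most 14.6 and 28.3 CPM. Of the 14 mesoderm and endoderm markers, 10 had 0 counts in every FRISCR cell and 13 in every Triton cell, and for the 12 blood markers these were 7 and 11.

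Recovery by both methods rose with the level that a gene had in live cells. The recovery rule has a minimum of 10 CPM, which partly builds in such a rise. In 5 bins of 1756 genes by live level, Triton recovered 5.07%, 8.66%, 12.9%, 23.7% and 63.3% of genes from the lowest to the highest bin, and FRISCR 26.7%, 54.5%, 80.5%, 97.3% and 99.8%. The lowest bin had a median log2 fold of 3.01 and the highest 1.48. FRISCR only genes made up 2.51%, 4.10%, 4.16%, 1.65% and 0.114% of the bins, so they were found mostly below 56.6 CPM in live cells. The share of genes with no count in any Triton cell went from 25.3% in the lowest to 0.114% in the highest bin.

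Transcript length was related to the difference as well. The shortest 20% of genes by their longest annotated transcript, up to 2175 bases, had a median log2 fold of 1.03 and a Triton recovery of 35.5%. In the other 4 length bins the medians lay between 1.76 and 2.43 and Triton recovered 17.0% to 21.2%. Short genes also had higher live levels (median 58.3 CPM against 35.4 CPM in the longest bin), so the comparison was repeated within bins of live level. In the highest live bin, transcripts under 2000 bases had a median log2 fold of 0.57 (421 genes), those from 2000 to under 4000 bases 1.80 (693 genes) and those of 4000 bases or more 1.62 (620 genes). In the lowest live bin the values were 1.23 (210 genes), 3.72 (653 genes) and 2.93 (851 genes). In all 5 live bins the shortest class had the lowest median and the longest class lay between the other two. By GC content the median went from 2.04 in the lowest to 1.65 in the highest bin, with 2.56 to 2.18 in set 1 and the other way, from 3.15 to 3.42, in set 2. The FRISCR only genes had a median transcript length of 3205 bases and a median of 9 exons, against 3127 bases and 7 exons for genes recovered by both. Genes are not independent replicates, and these are descriptions across genes.

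**Figure D5:**
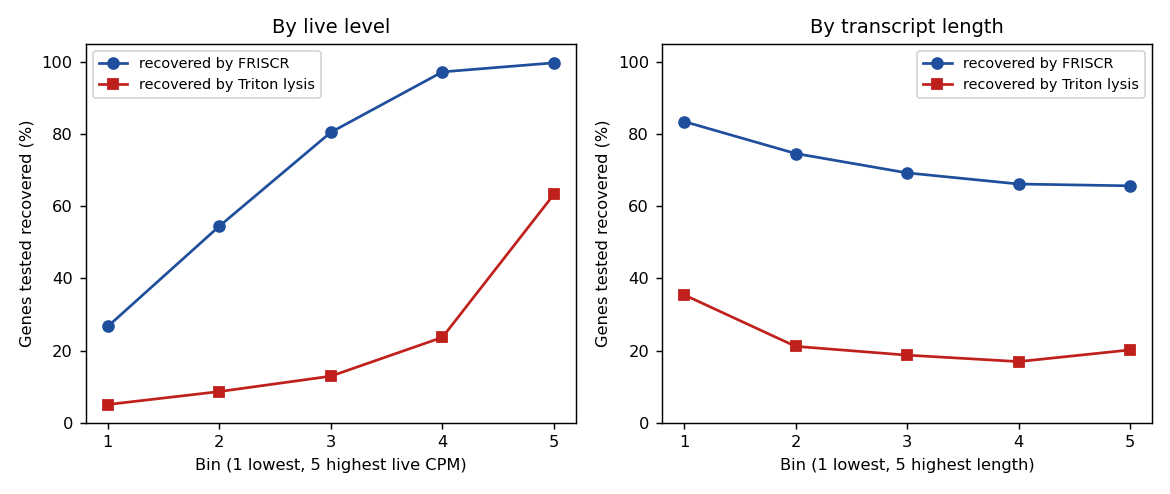
Percent of genes recovered from fixed cells (y axis) by FRISCR (blue) and Triton lysis (red) in 5 bins of genes by live level (left) and by transcript length (right). Triton recovery went from 5.07% to 63.3% over the live level bins and was highest, 35.5%, in the shortest transcripts.

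At an equal total count the preparations differed in how many genes a cell showed and how alike its cells were. The abundant rows above are part of that total, so fewer counts were left for other genes in Triton cells. After thinning each cell to 1000000 counts, FRISCR cells showed a median of 8932 genes (7978 to 9971, SD over cells 582) and Triton cells 5077 (4154 to 6614, SD 785), without overlap. The difference of the medians was 3855, with 3837 in set 1 and 3823.5 in set 2. With the abundant rows left out before thinning it was 3476.5. Genes shown by every cell of a preparation numbered 3523 with FRISCR and 1690 with Triton. Of the genes shown by either of 2 cells, the median share shown by both was 62.3% over 66 pairs of FRISCR cells, 47.4% over 21 pairs of Triton cells and 42.2% over 84 pairs across the preparations. For live cells it was 64.6% with FRISCR and 67.8% with Triton. Pairs share cells, so they are not independent.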

How the data were processed

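Single cells were profiled by Smart-seq2 and Nextera XT, per the labels' protocols. The authors deposited a table of expected counts (estimated counts per gene, of which 40.3% of nonzero values were not whole) and a table of TPM values, with 23045 rows and 45 cells. Per the submitters' processing notes, reads were placed on GRCh37 (hg19). Which aligner, counting tool, annotation and strand setting were used is not given in the sources used here. Every column matched a sample title, so 0 columns were left unmapped.

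Estimated counts were rounded to whole numbers, and all cells were kept. Recovery, folds and thinning are as defined in the report. Ratios carry exact 95% intervals from the binomial split of 2 sums, and shares of cells exact Clopper-Pearson intervals. Gene features came from the longest transcript in GENCODE release 29, on another build, so no coordinates are given; 19074 rows matched by current symbol, 1968 by an older one through RefSeq synonyms, and 2003 matched none. Sequences are from the same GENCODE release. Named genes are the 15 highest by CPM of each one-method class, the 5 highest recovered by both, and POU5F1, SOX2 and NANOG. The rule also takes the 10 largest differences each way, at 50 CPM or more in both sets of the higher group. The most abundant and most extreme members of each of 32 lists complete it. Some genes that this rule takes are not reported here. Genes outside the rule are marked as named after their values were seen, except the stem cell markers used to check the label. The members and lists were chosen with earlier results of these data known. The calculations were tested on simulated data. Alternatives were TMM (edgeR 4.0.16), median of ratios (DESeq2 1.42.0), other totals, minimums and depths, the TPM table, each library set and leaving out each cell. Python 3.11.15, numpy 2.4.6, pandas 2.3.3, scipy 1.17.1, matplotlib 3.10.9 and R 4.3.3 were used.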

Additional observations from a re-analysis of the deposited data

Results flagged for a closer look

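In 4 of 23 measures examined over the 7 fixed Triton cells, 1 cell stood far from the other 6 on the log2(CPM + 1) scale, by Dixon's criterion. Chance flags about 1 in 20 such groups. Fixed Triton replicate 3 was the highest for 3 ribosomal RNA rows: c16_SSU-rRNA_Hsa at 13.72 with the next cell at 12.88, c2_SSU-rRNA_Hsa at 12.56 with the next at 11.45, and c5_LSU-rRNA_Hsa at 9.02 with the next at 6.50. Fixed Triton replicate 2 was the lowest for the row cytochromeb, at 12.26 with the next cell at 13.48. Replicate 3 was also the cell with the fewest total counts, 3388444, and with the most FRISCR genes in view, 4819 of 6416.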

How the results depend on the processing

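No paired analysis was possible because replicate numbers only follow accession order and no test was run.

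With 5 counts needed for a positive cell, 488 genes were FRISCR only (187 shared with the 236) and 11 Triton only. A minimum of 20 CPM gave 151 FRISCR only genes. Requiring 80% of cells gave 94 FRISCR only, 0 Triton only and 1253 genes recovered by both, and 50% gave 424 FRISCR only. For the fixed Triton sets 80% means a count in every cell, which none of the Triton only genes had. FRISCR cells of set 1 alone gave 463 FRISCR only and 8 Triton only genes, and those of set 2 alone 427 FRISCR only. Leaving out 1 cell at a time gave 255 to 388 FRISCR only, 1 to 5 Triton only and 1537 to 2132 genes recovered by both. It also changes what share of the remaining cells the rule needs, so these ranges mix the 2 changes. It gave 4364 to 4660 genes at least 2-fold higher with FRISCR, 145 to 183 with Triton, a median log2 fold of 1.84 to 2.06 and a difference in genes detected of 3748.5 to 4031.

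Genes at least 2-fold higher with Triton numbered 685 by TMM, 775 by median of ratios, 461 without the abundant rows, 78 by mean TPM, 725 in set 1, 847 in set 2, 588 without a live minimum and 72 at a live level of 50 CPM, where those higher with FRISCR numbered 1901. The median log2 fold was 0.78 by TMM, 0.66 by median of ratios, 1.16 without the abundant rows, 2.41 in set 1 and 2.92 in set 2. Fewer genes were tested at 50 CPM and more without a live minimum. A count in 1 set asks for 2-fold in that set alone and not in both. TMM, median of ratios and the other totals shift all genes alike. For mean TPM and for the medians of the single sets the cause was not tested.

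Of 119 named genes past 2-fold, 8 changed direction under an alternative. By median of ratios RPL4 went to -0.076, EEF1A1 to -0.015, CD24 to -0.013 and PSMA2 to -0.124 (-0.011 by TMM). MRPL40 went to 0.43 in set 1 and ran from -1.55 to 1.29 when 1 cell was left out (the latter without fixed Triton replicate 7), TIMP1 to 1.43 and MAP2 to 2.23 in set 1, and ZMAT3 to 0.27 in set 2.

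With 7 Triton cells from 1 sample, a gene at 0 is limited only to 0.103 CPM over the group.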

Other observations

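Among genes with no count in any fixed FRISCR cell, 26 reached 10 CPM in the summed fixed Triton cells without meeting the recovery rule, and those named here were chosen after their values were seen. All rested on 1 to 4 Triton cells. Histone genes were HIST1H1A (97.2 CPM, a count in 2 cells), HIST1H4E (42.5 CPM, 3 cells), HIST1H3B (15.3 CPM, 4 cells) and HIST1H3D (12.7 CPM, 1 cell), with live Triton levels of 27.5, 11.7, 2.14 and 3.77 CPM.

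Others had no count in live Triton cells. The surface enzyme NT5E had 54.4 CPM with a count in 2 fixed Triton cells, the retinaldehyde dehydrogenase ALDH1A1 43.4 CPM in 2 cells, TMEM54 37.3 CPM in 2 cells and LEFTY1, an inhibitor of Nodal signalling, 17.4 CPM in 2 cells. In live FRISCR cells ALDH1A1 stood at 5.73 CPM, NT5E at 0.0551 CPM and both TMEM54 and LEFTY1 at 0. In the opposite direction, 614 genes had no count in any Triton cell and missed the FRISCR recovery rule by the level of 1 set or the share of cells.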
